A study of Mus musculus with 7 samples.

Results

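The genes described here are the heat shock proteins and chaperonins of activated mouse CD8 T cells, taken as every non-control array probe whose gene name begins with Hsp or Dnaj, or is Tcp1 or one of Cct2 to Cct8. The rule selected 121 of the 55681 non-control probes, which named 83 of the 24040 genes that could be named on the array. These 83 genes were grouped by name alone, which does not show that each has its family's function. By name, 3 fell to the HSP90 family, 12 to HSP70, 8 to the small heat shock proteins, 45 to the DNAJ co-chaperones and 9 to the chaperonin CCT. The remaining 6 carried other Hsp names. One of them, Hspg2, encodes the basement membrane proteoglycan perlecan and is no chaperone; it was kept because the rule selected it by name.

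RNA came from 7 separate samples of mouse lymph node CD8 T lymphocytes, each read on 1 single-colour (Cy3) array. All mice were OT-1het and Rag-/-, so that in both groups the T cells carried the OT-1 receptor, which recognises the ovalbumin peptide SIINFEKL. Every culture was activated with 100 nM of that peptide for 24 h. The 4 WT samples came from mice with Lck, the proximal kinase of the T cell receptor. The 3 Lck-/- samples came from mice that lack the endogenous gene and carry a knocked-in Lck kept on by dietary doxycycline, which had been withdrawn for 7 days to shut it off; the labels do not say in which cells the knocked-in gene was driven. The labels name no doxycycline for the WT mice, so the loss of Lck and the doxycycline history cannot be told apart.

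Chaperones bind unfolded or partly folded proteins and limit their aggregation. HSP70 proteins act first on many chains, recruited and switched by DNAJ co-chaperones through their J domain; HSP90 completes the folding of many kinases, Lck among its classic clients, and the ring-shaped CCT folds actin and tubulin. Some members are made constantly by growing cells, whereas others, such as Hspa1a, Dnajb1 and Hsph1, are induced by heat shock factor when proteins misfold.

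The promoters of 68 of the 83 genes were matched in RefSeq (GRCm38.p6). They are shown because the few that hold a motif can be sorted by its stress pathway, a property that the choice by name did not use. Each window ran from 250 bases before to 50 after a gene start. The strict heat shock element GAANNTTCNNGAA, on the other strand TTCNNGAANNTTC, was found in 4 of the 68 genes (5.88%), Dnajb6, Hspd1, Hspe1 and Hsph1. It was present in 0.662% of all 27025 genes and in 0.603% of all 32851 promoters. The endoplasmic reticulum stress element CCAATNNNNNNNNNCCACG, on the other strand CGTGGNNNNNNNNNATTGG, was found in Dnajc3, Hsp90b1 and Hspa5, 3 of 68 genes (4.41%) against 0.137% of all genes and 0.119% of all promoters. No member held both motifs. A match describes letters only and is not shown to be a bound site. A gene not named here may be 1 of the 15 without a matched promoter or may lack the strict letters. Its absence, as for Hspa1a and Dnajb1, therefore does not show that it has no such element.

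Hspd1 and Hspe1, which encode the mitochondrial chaperonin Hsp60 and its lid Hsp10, start in opposite directions and share 285 promoter bases with the same letters, at chr1:55087898-55088182. Their heat shock elements are therefore the same pair of overlapping matches, at -144 to -127 from the Hspd1 start and at -89 to -72 from the Hspe1 start. The 250 bases before each of 2 starts, Hspd1 (chr1:55087933-55088182, minus strand) and Dnajb6 (chr5:29735648-29735897, plus strand, match at -46 to -34), are given with the heat shock element in capitals.
Hspd1: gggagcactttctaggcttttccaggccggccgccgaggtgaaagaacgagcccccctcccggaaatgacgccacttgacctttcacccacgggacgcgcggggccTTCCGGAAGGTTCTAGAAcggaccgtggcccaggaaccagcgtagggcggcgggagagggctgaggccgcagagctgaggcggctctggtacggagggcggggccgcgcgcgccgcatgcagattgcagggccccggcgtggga
Dnajb6: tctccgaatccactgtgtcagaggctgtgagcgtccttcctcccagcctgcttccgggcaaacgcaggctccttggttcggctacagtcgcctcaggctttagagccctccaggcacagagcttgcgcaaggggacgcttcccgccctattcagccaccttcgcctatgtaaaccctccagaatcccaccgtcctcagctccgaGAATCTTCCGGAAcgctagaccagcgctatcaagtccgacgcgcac

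The 3 genes with the other element all encode folding factors of the endoplasmic reticulum: the HSP70 protein BiP (Hspa5), the HSP90 protein Grp94 (Hsp90b1) and the J domain protein Dnajc3. The element lay at -65 to -47 in Hspa5 (chr2:34771840-34772089, plus strand) and at -105 to -87 in Dnajc3 (chr14:118937682-118937931, plus strand). Hsp90b1 (chr10:86705445-86705694, minus strand) held it at both -212 to -194 and -107 to -89. Capitals mark it in the 250 bases before each start.
Hspa5: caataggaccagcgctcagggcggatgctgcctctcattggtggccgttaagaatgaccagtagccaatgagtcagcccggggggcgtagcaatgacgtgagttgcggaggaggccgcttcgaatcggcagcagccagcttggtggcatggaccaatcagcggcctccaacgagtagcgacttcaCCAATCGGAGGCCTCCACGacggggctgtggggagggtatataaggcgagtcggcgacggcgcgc
Hsp90b1: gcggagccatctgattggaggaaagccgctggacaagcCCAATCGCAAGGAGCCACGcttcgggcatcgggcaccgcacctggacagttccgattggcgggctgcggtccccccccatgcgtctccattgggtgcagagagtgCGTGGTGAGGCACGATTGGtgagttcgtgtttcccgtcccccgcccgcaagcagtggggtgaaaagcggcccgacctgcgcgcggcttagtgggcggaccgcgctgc
Dnajc3: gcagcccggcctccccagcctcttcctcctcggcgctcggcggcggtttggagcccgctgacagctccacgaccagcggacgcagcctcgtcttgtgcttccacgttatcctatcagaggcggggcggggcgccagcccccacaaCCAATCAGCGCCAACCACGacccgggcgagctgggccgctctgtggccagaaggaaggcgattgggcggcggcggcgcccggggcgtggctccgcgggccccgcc

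The probes of Hspa1a and its neighbour Hspa1l, 60 bases each, are shown because near-identical HSP70 genes can share signal. The Hspa1a probe lies at chr17:35107117-35107176 on the minus strand and the Hspa1l probe at chr17:35115629-35115688 on the plus strand (mm9, the build of the scanner files). Aligned with an offset of 3 bases, they were identical at 42 of 57 positions (73.7%), marked by capitals. The Hspa1a probe is listed against both Hspa1a and Hspa1b, which it cannot tell apart.
Hspa1a: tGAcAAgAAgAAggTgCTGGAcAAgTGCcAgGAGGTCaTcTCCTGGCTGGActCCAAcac
Hspa1l: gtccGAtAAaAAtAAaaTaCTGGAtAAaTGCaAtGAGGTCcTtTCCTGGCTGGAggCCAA

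Signals are given on the log2 scale relative to the 75th percentile of the same array, so that 0 is the brightness of the 75th percentile probe and each step of 1 is a doubling. Probes differ in brightness, so the order of genes by signal served only to choose which to name and says nothing of their relative abundance. All 7 arrays lay on 1 slide and were read in 1 scan, with 46.57% to 61.06% of spots well above background and no saturated spot. The precision is limited by the 7 arrays. The Lck probe went against the labels on 2 arrays: the array labelled WT 4 gave 6.04, whereas the other WT arrays gave 7.36 to 7.67, and the array labelled Lck-/- 1 gave 8.02, whereas the other Lck-/- arrays gave 6.17 and 6.21. No source used here says whether that probe lies in the deleted part of the gene, and every direction below rests on the labels. CD8 T cell markers were well above background on all arrays for 7 of 8 genes. They were higher in the Lck-/- mean for 8 of 8 genes (median 0.29). Their summed log2 level was 8.93 to 9.39 on WT and 9.42 to 9.97 on Lck-/- arrays, with Cd3e missing on WT 3. Of 4 B cell markers, 2 were tested and were higher too (median 0.50). Proliferation markers were lower in the Lck-/- mean for 10 of 10 genes (median -0.98). Their summed log2 level on WT arrays 1 to 4 was 8.40, 7.00, 7.95 and 6.93, with Ccnb1 missing on WT 3. On Lck-/- arrays 1 to 3 it was 7.03, 6.18 and 6.24. WT 4 was thus the lowest WT array and Lck-/- 1 the highest Lck-/- array. The NK cell markers were higher for 9 of 9 genes tested (median 1.05). With Fcer1g missing on WT 3, their summed level was 0.76, 1.67, -0.14 and 2.89 on WT arrays 1 to 4. It was 1.60, 3.46 and 2.02 on Lck-/- arrays 1 to 3. The highest WT and the lowest Lck-/- array by this sum were WT 4 and Lck-/- 1, the same arrays whose Lck signal went against the labels; the groups overlapped only through them. Dendritic cell and macrophage markers were higher for 8 of 8 genes (median 0.44). Their summed level was 3.86 to 4.64 on WT and 4.65 to 4.81 on Lck-/- arrays. The highest WT sum was that of WT 3, where Csf1r was missing and added nothing. These ranges therefore do not show that the groups lay apart. Among these 2 lists, Adgre1 passed the background filter with 1 WT and 3 Lck-/- arrays, and Lyz2, Ncr1 and Klrb1c with 2 WT and 3 Lck-/- arrays. Their counts and medians are therefore partly set by the filter and only describe the arrays. The part of these cells in the chaperone values was not tested, and fewer cells of a type cannot be told apart from less RNA per cell.

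With 24 h of peptide behind both groups, the comparison asked whether T cells without Lck held the same chaperone messages as T cells with it. No heat shock protein or chaperonin gene passed the test. Of the 83 genes, 71 exceeded background clearly on 3 or more of the 7 arrays and were tested among 14811 genes; the lowest limma adjusted p among them was 0.604, for Hspa4l. Over all genes 0 (0%) passed an adjusted p of 0.05 in limma, and 1055 (7.12%) had an unadjusted p under 0.05. At that unadjusted level, 2 of the 71 were lower (Hspa4l and Dnajb3, against 2.19% of all genes) and 2 were higher (Dnajb13 and Cct6b, against 4.93%). Together they made 5.63% of the 71, a share near the background. When the arrays labelled WT 4 and Lck-/- 1 were both left out, the counts were 1 lower and 4 higher of the 71. Of all genes, 4.73% were then lower and 6.13% higher at that level. In the adjusted test 0 of the 71 passed, although 60 of all genes then did.

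The median difference, Lck-/- minus WT, was 0.03 on the log2 scale over the 71 chaperone genes and 0.04 over all genes tested. It was 0.01 for HSP90, 0.01 for HSP70, 0.03 for the small heat shock proteins, 0.02 for DNAJ, 0.15 for CCT and 0.07 for the other Hsp names. Most differences were also bounded within 2-fold. The 95% interval lay within 2-fold in either direction for 64 of the 71 genes (90.1%), against 78.9% of all genes. It lay within 1.5-fold for 43 (60.6%), against 46% of all genes. Families differed in this. The share within 2-fold was 75% for the small heat shock proteins, 81.8% for HSP70 and 100% for HSP90. Within 1.5-fold it was 50%, 54.5% and 100%, and 53.8% for DNAJ. Arrays of one group also lay close together, with a median pooled SD of 0.21 for the chaperone genes and 0.25 for all genes. The chaperone probes were brighter, at a median signal percentile of 72.3 against 50 for all genes. The part of brightness in the intervals and the SD was not tested. The forest plot of differences shows the 95% intervals gene by gene.

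The signs of such small differences depended on the scaling. A change of reference shifts alike the differences of all genes measured on every array. Relative to the array median instead of the 75th percentile, the median of all genes moved from 0.04 to -0.16. The share of the 71 genes below 0 went from 36.6% (26 genes) to 80.3% (57), and that of all genes tested from 42.5% to 74.2%. With quantile normalization it was 54.9% (39; all genes 48%), with normexp and quantile normalization 50.7% (36; all genes 48%) and with the authors' deposited values 52.1% (37; all genes 51.8%). Among all genes at an unadjusted p under 0.05, the share that was higher in Lck-/- was 69.2%, and 55.6%, 55.2%, 48% and 22% with quantile, normexp, deposited and median scaling.

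**Figure D1:**
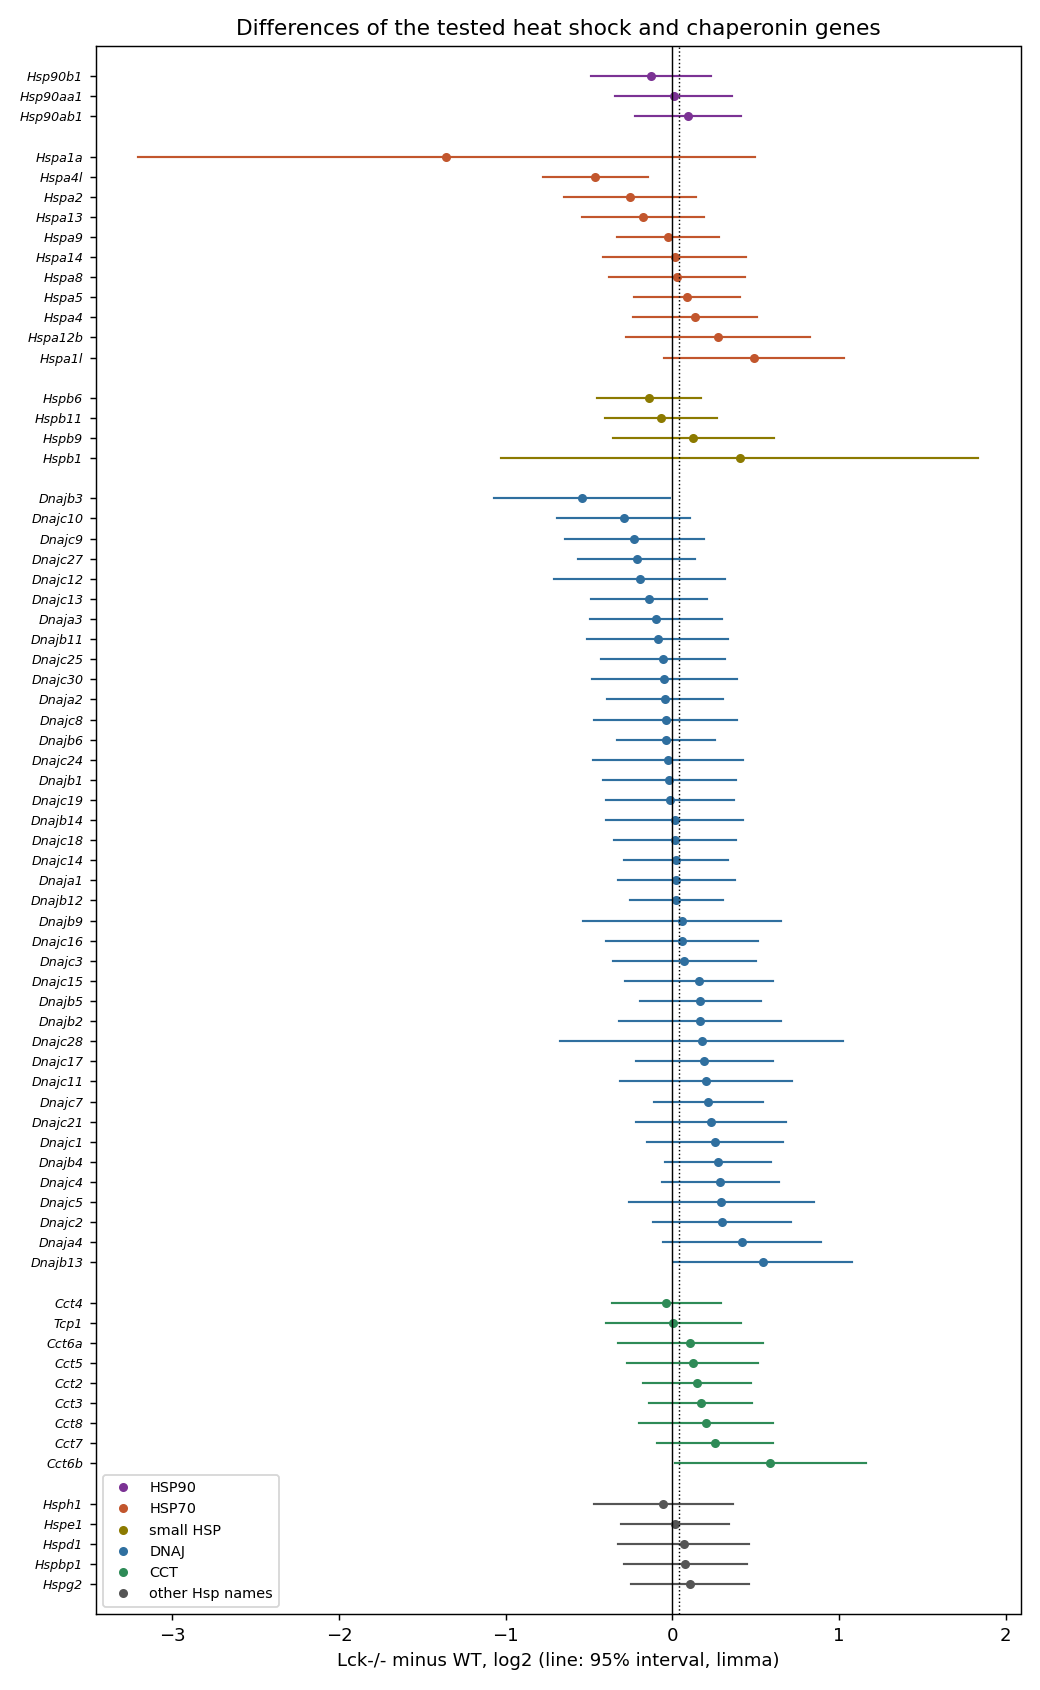
Difference of each of the 71 tested heat shock and chaperonin genes, Lck-/- minus WT, on the log2 scale (x axis), grouped by family and ordered by size. Points are limma estimates from 4 WT and 3 Lck-/- arrays, lines their 95% intervals, the solid line 0 and the dotted line the median of all genes (0.04); most intervals cross 0, and Hspa1a and Hspb1 have the widest.

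The 3 HSP90 genes were measured with the least scatter of any family (median pooled SD 0.16). Hsp90aa1, the inducible cytosolic form, gave 7.58, 7.47, 7.56 and 7.39 on WT arrays 1 to 4 and 7.76, 7.45 and 7.31 on Lck-/- arrays 1 to 3. Hsp90ab1, the constitutive cytosolic form, gave 9.10, 9.26, 9.18 and 9.12 against 9.45, 9.12 and 9.20. For both genes the array labelled Lck-/- 1 was the brightest and the other Lck-/- arrays lay within or close to the WT values, so the groups overlapped. The differences were 0.01 (SE 0.15; 95% interval -0.34 to 0.36) and 0.09 (SE 0.14; -0.23 to 0.41). Hsp90b1, the endoplasmic reticulum form, gave 6.70, 6.59, 6.37 and 6.64 on WT and 6.38, 6.67 and 6.28 on Lck-/- arrays, a difference of -0.13 (SE 0.16; -0.49 to 0.23). Here too the groups overlapped, and the array labelled Lck-/- 1 was low rather than high.

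**Figure D2:**
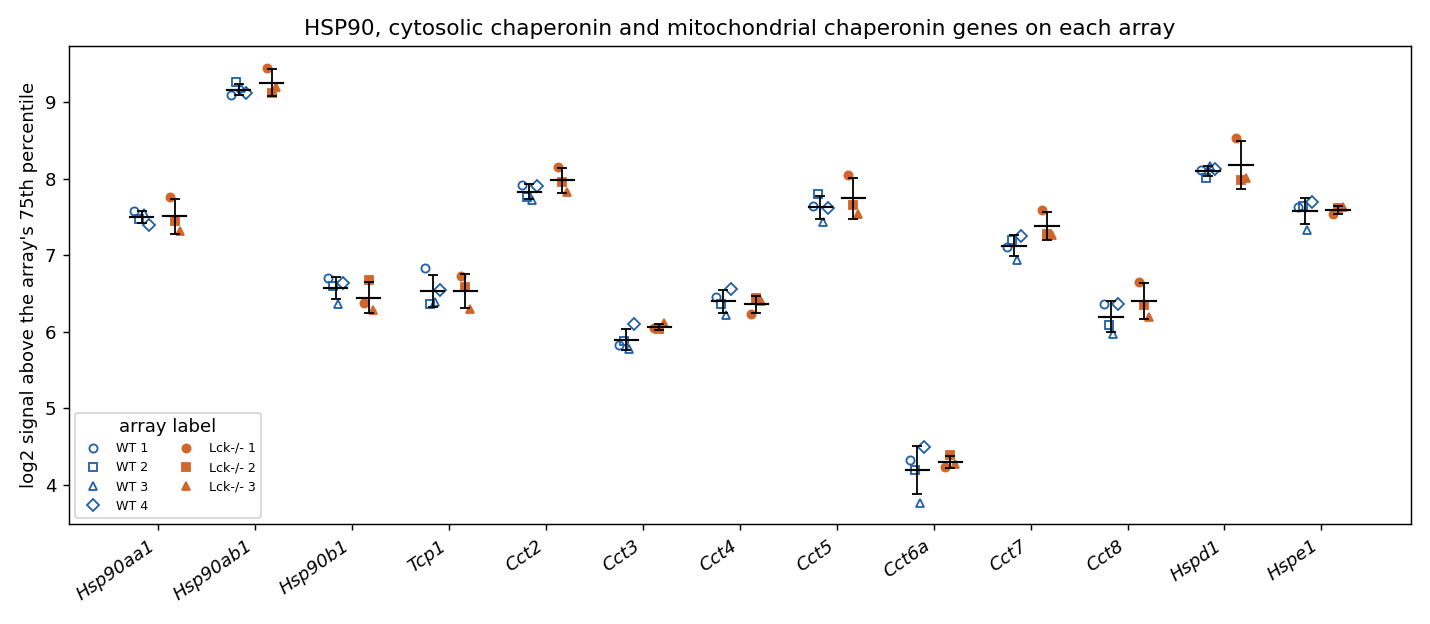
Log2 signal above each array's 75th percentile (y axis) for the 3 HSP90 genes, 8 CCT genes and the mitochondrial chaperonin genes Hspd1 and Hspe1. Symbols are single arrays (blue WT, orange Lck-/-), bars the group mean and SD (n = 4 and 3); levels of different genes are not comparable, and within each gene the groups lie close together, with Lck-/- 1 the top point for Hsp90aa1, Hsp90ab1, Cct2, Cct5, Cct7, Cct8 and Hspd1.

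Of the HSP70 family, 11 of 12 genes were tested. Those with the brightest probes were Hspa8, the constitutive cytosolic Hsc70, with a difference of 0.03 (SE 0.18), Hspa4 (0.14, SE 0.16), Hspa5 (0.09, SE 0.14), Hspa14 (0.01, SE 0.19) and the mitochondrial Hspa9 (-0.03, SE 0.13). Hspa8 gave 8.55, 8.62, 8.17 and 8.49 on WT and 8.77, 8.34 and 8.35 on Lck-/- arrays. Hspa5 gave 6.82, 7.04, 6.73 and 7.06 against 7.00, 6.98 and 7.02, so that its 3 Lck-/- arrays all fell inside the WT range. Probes of the same gene did not always share a sign. For Hspa4, which encodes an exchange factor of the HSP110 type, the brightest probe gave 0.14 and the others -0.27 and -0.25. The 2 probes of Hspa13 gave -0.18 and 0.18.

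Hspa4l, a relative of Hspa4 with the same kind of role, stood lowest against its scatter. Its WT values were 1.57, 1.35, 1.33 and 1.22 and its Lck-/- values 0.86, 0.91 and 0.94. Every Lck-/- array lay below every WT array. The difference was -0.46 (SE 0.14), a signal 1.38-fold lower, with an unadjusted p of 0.00953 and a limma adjusted p of 0.604. Over the alternatives its adjusted p ran from 0.390 to 0.999. It was below 0 in 20 of 20 settings, from -0.67 to -0.39, and was -0.49 without the arrays labelled WT 4 and Lck-/- 1.

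Hspa1a, the classic heat-inducible HSP70, was the most variable member, and was singled out after its values were seen. It gave -3.50, 0.52, -0.95 and -1.21 on the WT arrays and -2.69, -2.30 and -2.93 on the Lck-/- arrays. The array labelled WT 2 was highest and the array labelled WT 1 lowest of all 7, with the Lck-/- arrays between WT 1 and the other WT arrays. The WT arrays thus spanned 4.02 on the log2 scale, or 16.2-fold, a range at the 99.4th percentile of all genes tested. The difference of -1.36 (SE 0.80; 95% interval -3.21 to 0.49; limma adjusted p 0.789) was smaller than that range. It moved to -2.10 without WT 1 and to -0.76 without WT 2, and was below 0 in 20 of 20 settings (adjusted p 0.582 to 0.999).

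Other genes that heat shock factor is known to induce were examined beside it, also after their values were seen. Dnajb1 gave 5.22, 5.55, 4.99 and 5.27 on WT and 5.05, 5.31 and 5.36 on Lck-/- arrays. The co-chaperone gene Bag3, which is no member of the list, gave -0.62, 0.03, -0.59 and -0.44 against -0.34, -0.50 and -0.48. The array labelled WT 2 was thus the highest of the 7 for Hspa1a, Dnajb1 and Bag3. Other inducible members were highest elsewhere: Hsp90aa1 and Hspd1 on Lck-/- 1, Hspb1 on Lck-/- 3, Hspe1 on WT 4 and Hsph1 on Lck-/- 2, and Dnaja1 was lowest on WT 2. Hsph1 gave 5.74, 5.80, 5.72 and 6.06 on WT and 5.51, 6.10 and 5.71 on Lck-/- arrays. The differences for Dnajb1 (-0.02, SE 0.17), Bag3 (-0.03, SE 0.19) and Hsph1 (-0.05, SE 0.18) were smaller than their errors.

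**Figure D3:**
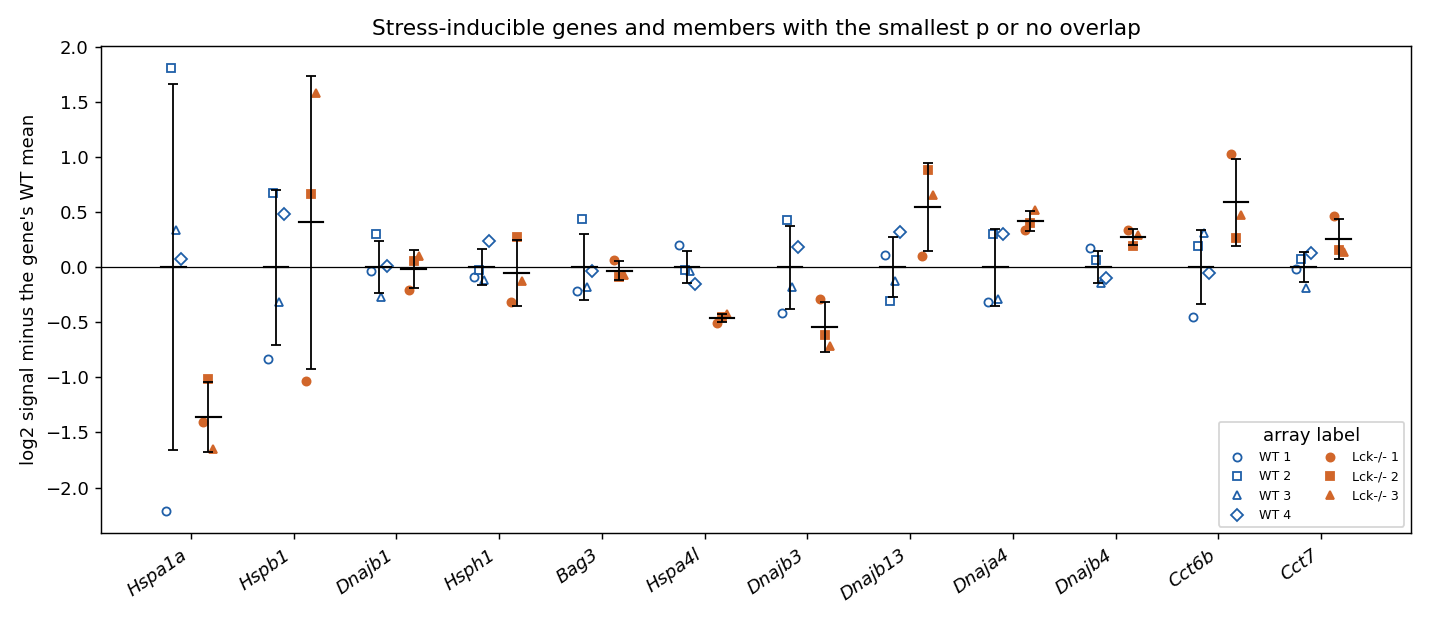
Log2 signal of each array minus the gene's WT mean (y axis) for stress-inducible genes and for members with the smallest p or no overlap between groups. Symbols are arrays, bars the group mean and SD (n = 4 WT, n = 3 Lck-/-); Hspa1a spans 4.02 on the WT arrays, whereas Hspa4l has all 3 Lck-/- arrays below all WT arrays.

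Among the genes with Hspb names, grouped here as small heat shock proteins, 4 of 8 were tested. Hspb2, Hspb3, Hspb7 and Hspb8, several of them best known from muscle, were well above background on too few arrays. Hspb1 (Hsp27) gave -4.22, -2.71, -3.70 and -2.89 on WT and -4.41, -2.72 and -1.80 on Lck-/- arrays, so the highest and the lowest of the 7 values were both from Lck-/- arrays. Its difference was 0.41 (SE 0.62; 95% interval -1.03 to 1.84). It ranged from -0.18 without Lck-/- 3 to 1.29 without the arrays labelled WT 4 and Lck-/- 1. Hspb6, Hspb9 and Hspb11 differed by -0.14 (SE 0.14), 0.13 (SE 0.21) and -0.07 (SE 0.15), with overlapping groups.

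The DNAJ family was the largest, with 39 of 45 genes tested, 16 below and 23 above 0. The 5 genes with its brightest probes were close to 0 against their errors: Dnajc5, the cysteine string protein (0.29, SE 0.24), Dnaja1 (0.02, SE 0.15), Dnajc15 (0.16, SE 0.19), Dnajc9, a histone co-chaperone (-0.23, SE 0.18), and Dnajc7 (0.21, SE 0.14). For Dnajc5 the array labelled Lck-/- 1 gave 7.92, the other 6 arrays gave 6.88 to 7.41, and its 4 probes differed by 0.59 (SE 0.26), 0.29 (SE 0.24), 0.07 (SE 0.19) and close to 0 (SE 0.18). Whether these probe differences are unequal was not tested.

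In 6 of the 71 tested genes (8.45%) the groups did not overlap, against 7.24% of all genes tested, a share near the background. They were lower for Hspa4l, Dnajc10 and Dnajc27 (2.15% of all genes were lower without overlap) and higher for Dnaja4, Dnajb4 and Cct7 (5.09%). Dnaja4, a cytosolic partner of HSP70, gave -0.18, 0.43, -0.17 and 0.43 on WT and 0.46, 0.52 and 0.65 on Lck-/- arrays. The gap was narrow, since WT 2 and WT 4 lay just below Lck-/- 1. The difference was 0.42 (SE 0.20, limma adjusted p 0.744). A dimmer Dnaja4 probe differed by 0.18 (SE 0.38), and there the groups overlapped, with Lck-/- 2 the lowest array at -4.42. Dnajb4 gave -2.04, -2.15, -2.36 and -2.31 against -1.88, -2.03 and -1.92, a difference of 0.27 (SE 0.14; limma adjusted p 0.751), again with adjacent values at the boundary.

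Dnajc10, a J domain disulfide reductase of the endoplasmic reticulum, gave 2.63, 2.62, 2.39 and 2.34 on WT arrays and 2.29 and 2.11 on Lck-/- arrays 2 and 3. The spot on the array labelled Lck-/- 1 was an outlier by the scanner's flags and was left out. The difference of -0.29 (SE 0.17, limma adjusted p 0.788) thus rests on 2 Lck-/- values. A dimmer Dnajc10 probe kept that array, at -0.85 inside the WT range. It differed by -0.25 (SE 0.26), with overlapping groups. Dnajc27 gave -1.39, -1.11 and -1.27 on WT 1, 2 and 4 and -1.41, -1.49 and -1.51 on the Lck-/- arrays. Its difference was -0.21 (SE 0.15), with the WT 3 spot left out by the same flags. Dnaja3 and Dnajc8 likewise lacked the array labelled Lck-/- 1 and differed by -0.10 (SE 0.17) and -0.04 (SE 0.18).

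The remaining DNAJ genes with an unadjusted p under 0.05 overlapped between groups. Dnajb3, best known from testis, gave -2.22, -1.38, -1.99 and -1.62 on WT and -2.09, -2.42 and -2.52 on Lck-/- arrays, with Lck-/- 1 inside the WT range. Its difference was -0.54 (SE 0.23; limma adjusted p 0.696). Dnajb13, an axonemal gene of cilia and sperm, gave -2.56, -2.98, -2.80 and -2.35 against -2.57, -1.79 and -2.02, where again Lck-/- 1 lay inside the WT range. The difference was 0.54 (SE 0.23; limma adjusted p 0.696) and became 0.87 without the arrays labelled WT 4 and Lck-/- 1 (limma adjusted p 0.171). It was above 0 in 20 of 20 settings, and Dnajb3 was below 0 in 20 of 20.

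All 9 CCT genes were tested, and 8 of them were above 0. These 8 include Cct6b, which was well above background on only 1 WT array and on all 3 Lck-/- arrays. The CCT median of 0.15, which also includes Cct6b, was 0.11 above that of all genes. It fell to 0.07 without the array labelled Lck-/- 1 and reached 0.23 without Lck-/- 3. Relative to the array median as reference, the CCT median was -0.06 and that of all genes -0.16. In each of the 20 settings the CCT median lay above the median of all genes, by 0.04 to 0.17. No subunit passed the adjusted test, and no test was made of the set.

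Cct7 was the only subunit whose groups did not overlap, with 7.11, 7.20, 6.94 and 7.25 on WT and 7.59, 7.28 and 7.26 on Lck-/- arrays. The lowest Lck-/- array was just above the highest WT array, and Lck-/- 1 stood apart above the rest. The difference was 0.26 (SE 0.15; 95% interval -0.09 to 0.60; limma adjusted p 0.788), and 0.19 without the arrays labelled WT 4 and Lck-/- 1. Cct8 gave 6.37, 6.09, 5.97 and 6.36 on WT and 6.66, 6.36 and 6.19 on Lck-/- arrays (0.20, SE 0.17). Cct3 gave 5.83, 5.88, 5.78 and 6.10 against 6.05, 6.04 and 6.11 (0.17, SE 0.13). For Cct3 the Lck-/- arrays lay at the top of the WT range or above it, for Cct8 from its middle to above it, and the groups overlapped in both.

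Cct2 (0.15, SE 0.14), Cct5 (0.12, SE 0.17) and Cct6a (0.11, SE 0.19) were smaller still, Tcp1, the alpha subunit, differed by 0.00 (SE 0.18) and Cct4 by -0.04 (SE 0.14). For Tcp1 the WT arrays gave 6.83, 6.37, 6.39 and 6.54 and the Lck-/- arrays 6.73, 6.58 and 6.29, evenly mixed. Cct6b, a testis form of the zeta subunit, gave -4.96, -4.31, -4.20 and -4.56 on WT and -3.48, -4.24 and -4.03 on Lck-/- arrays. It was well above background on only 1 WT array and on all 3 Lck-/- arrays. It therefore entered the test through the group in which it was brighter, and its difference of 0.59 (SE 0.25; limma adjusted p 0.696) supports nothing. Hspa1l (0.49, SE 0.23) entered in the same way. So did Dnajc28 and, with 1 WT and 2 Lck-/- arrays, Hspa12b, both also above 0. Their families' counts and medians include them. Among the 64 genes above background on all 7 arrays the unadjusted counts were 2 lower and 1 higher. Of all genes filtered in that way, 2.99% were lower and 4.63% higher. The CCT median was then 0.14.

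The chaperonin of the mitochondrion differed little. Hspd1 gave 8.12, 8.01, 8.16 and 8.13 on WT and 8.54, 7.98 and 8.01 on Lck-/- arrays, a difference of 0.07 (SE 0.17). Hspe1, which shares its promoter, gave 7.63, 7.65, 7.34 and 7.70 against 7.54, 7.62 and 7.63 (0.02, SE 0.14). By these probes the arrays did not move together within the pair. Lck-/- 1 was the highest of 7 for Hspd1 and among the lowest for Hspe1, where only WT 3 was lower. On the dimmer Hspe1 probes, Lck-/- 1 gave 7.17, in the middle of the arrays, and 4.84, where again only WT 3 was lower. Hspbp1, an exchange factor for HSP70, differed by 0.08 (SE 0.16), and perlecan, Hspg2, by 0.11 (SE 0.15). Dnajb6 and Hsph1, the other genes with a heat shock element, differed by -0.04 (SE 0.13) and -0.05 (SE 0.18), and Dnajc3, with the endoplasmic reticulum element, by 0.07 (SE 0.19). Genes holding either element thus ran from -0.13 (Hsp90b1) to 0.09 (Hspa5).

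Other genes of the pathway were read from lists drawn up from general knowledge. Of heat shock factors and cytosolic co-chaperones, 28 of 29 genes were tested, 11 below and 17 above 0 (median 0.03). Of them, 0 had an unadjusted limma p under 0.05, against 7.12% of all genes. The heat shock factor gene Hsf1 differed by 0.03 (SE 0.17), the kinase co-chaperone gene Cdc37 by 0.20 (SE 0.17) and the HSP90 activator gene Ahsa1 by 0.02 (SE 0.12). Only Fkbp5, an HSP90-bound prolyl isomerase, did not overlap between groups, at 0.21 (SE 0.13). That made 3.57% of the list, under the 7.24% of all genes.

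Prefoldin and CCT helpers had 14 of 15 genes tested, 4 below and 10 above 0 (median 0.10). Tbca, a tubulin cofactor, differed by 0.25 (SE 0.16) and Pfdn6, a prefoldin subunit, by 0.14 (SE 0.14). Folding factors of the endoplasmic reticulum had 19 of 21 tested, 12 below and 7 above 0 (median -0.04). Of these, Pdia6 differed by 0.17 (SE 0.27) and Erp29 by 0.05 (SE 0.19). Only Pdia3, a disulfide isomerase, did not overlap between groups, at 0.26 (SE 0.17). That made 5.26% of the list, also under the 7.24% of all genes. Mitochondrial folding and protease genes had 13 of 13 tested, 2 below and 11 above 0 (median 0.07), among them the protease gene Lonp1 (0.21, SE 0.17) and the HSP70 exchange factor gene Grpel1 (0.09, SE 0.14). In these 3 lists too, 0 genes had an unadjusted limma p under 0.05, against 7.12% of all genes.

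Averaged over a family on each array, the deviations from the WT mean show how the arrays stood. CCT gave 0.03, 0.01, -0.14 and 0.11 on WT and 0.33, 0.13 and 0.06 on Lck-/- arrays, so WT 4 lay above Lck-/- 3 and the groups overlapped. Over all genes the same means were 0.04, 0.01, -0.10 and 0.05 against 0.12, 0.08 and 0.01. WT 3 was thus the lowest array and Lck-/- 1 the highest for CCT and for all genes alike. DNAJ gave 0.02, 0.06, -0.18 and 0.10 on WT and 0.00, 0.16 and 0.01 on Lck-/- arrays. HSP70, in which Hspa1a takes part, gave -0.21, 0.23, -0.01 and 0.00 against 0.01, -0.11 and -0.24, with WT 2 on top. The proliferation and NK cell markers spread far more widely over the same arrays. Their means ran from -1.45 to 0.82 and from -1.03 to 2.15, while no chaperone family left the span from -0.24 to 0.33. The order of the arrays differed between families.

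**Figure D4:**
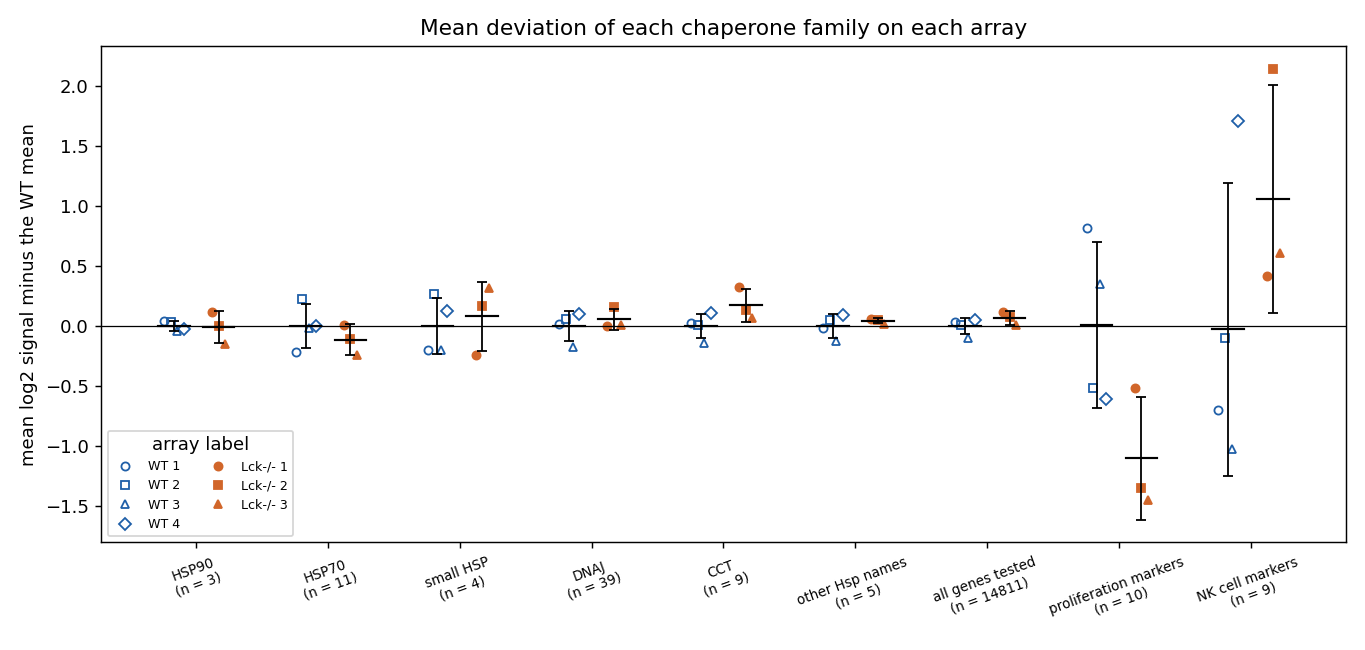
Mean over genes of the log2 signal minus the gene's WT mean (y axis) for each chaperone family, all genes tested, proliferation markers and NK cell markers. Symbols are arrays, bars the group mean and SD over arrays (n = 4 WT, n = 3 Lck-/-); the chaperone families stay between -0.24 and 0.33, whereas the NK cell marker mean reaches 2.15 and the proliferation marker mean -1.45.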

How the data were processed

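Arrays of 7 samples (4 WT, 3 Lck-/-; 1 slide, 1 scan) were read with Feature Extraction 10.7.3.1, per the file headers. The authors deposited per-spot signal intensity, background-corrected by the scanner software, and a table of log2 values. Of that table's making, limma is the single tool listed in the submitters' processing notes, with no version; its other steps are not given in the sources used here, and it served as an alternative only.

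Outlier spots and control spots were left out, spots of 1 probe averaged, and log2 intensity expressed relative to each array's 75th percentile. Probes were named by accession or symbol through RefSeq's gene table (GRCm38.p6, used for names and promoter sequences only); probe coordinates are mm9, from the files. A gene was its brightest probe among those well above background (at least 50% of a probe's spots) on at least 3 arrays. limma 3.58.1 in R 4.3.3 (lmFit, eBayes, two-sided) compared the groups over 14811 genes, with Benjamini-Hochberg adjustment at 0.05; the procedure was tested on simulated data. Nothing in the labels says more of the samples than that they were biological replicates.

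Members and lists were chosen with earlier results of these data known. Named were all HSP90 and CCT genes, the 5 brightest of every other family, members with an unadjusted p under 0.05 or without overlap, and the 2 brightest of each pathway list. Hspa1a, Hspa1l, Hspa13, Dnajb1, Dnajb6, Dnajc3, Dnaja3, Dnajc8, Bag3, Hsf1, Fkbp5 and Pdia3 were added after their values were seen. Dnajc28 and Hspa12b are mentioned only for how they passed the background filter and are not counted among the named genes. The labels do not say that same-numbered arrays were paired, and these did not clearly deviate together, so no pairing was used. No column of an unmapped sample was used.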

Additional observations from a re-analysis of the deposited data

Results flagged for a closer look

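Among the 57 named genes with 4 WT values, 3 had 1 WT array far from the other WT arrays, with a gap that took most of the group's range; chance alone flags about 1 in 20 groups. In each case it was the array labelled WT 3, and it was the lowest of the 4. Dnajc15, a J domain protein of the mitochondrial inner membrane, was at 6.10 there (6.50 to 6.56 on the other WT arrays; gap 0.887 of the range). Hspbp1 was at 4.19 (4.60 to 4.66; 0.863), and the disulfide isomerase Pdia3, no member, at 3.47 (3.91 to 3.95; 0.925). That array also had the most outlier spots, 1549 against 166 to 229 on the other WT arrays, and its mean over all genes was -0.10 relative to the WT mean. The part of this in the 3 values was not tested.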

How the results depend on the processing

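Across 19 alternatives, the last of them (without the arrays labelled WT 4 and Lck-/- 1) added after seeing the data, 0 of 1097 recomputed values of 58 named genes passed the adjusted threshold; 145 changed sign, and 20 genes never did. Over all genes, 1 was called with either replicate block (title or file number) or array weights, 60 without WT 4 and Lck-/- 1, and 0 to 1 with 1 replicate left out. Members higher at an unadjusted p under 0.05 numbered 0 with quantile or median scaling or the title block, 1 with normexp, the deposited values, the stricter filter or no filter, and 4 with the mean of a gene's probes or without WT 4 and Lck-/- 1 (0 to 3 leaving out 1 replicate, at 0 without WT 1 and 3 without WT 2). Members lower numbered 1 with the title block or without WT 4 and Lck-/- 1 and 0 with the file block. They numbered 1 to 3 leaving out 1 replicate, at 3 without WT 1 and 1 without WT 2. Over all genes, the share higher ran from 1.4% (median scaling) to 6.68% (title block) across the settings. The share lower ran from 0.722% (without Lck-/- 3) to 4.94% (median scaling). HSP90 medians were -0.16 (quantile), -0.11 (normexp) and -0.20 (median reference), -0.10 to 0.10 leaving out 1 replicate. For the median reference, HSP70 gave -0.19 (-0.12 with quantile, -0.11 with normexp, -0.08 to 0.07 leaving out 1), DNAJ -0.15 (-0.00 to 0.08) and CCT -0.056 (0.07 to 0.23). The other Hsp names gave -0.10 (quantile), -0.086 (normexp), -0.14 (median), -0.025 (deposited) and -0.013 (weights), and -0.031 to 0.076 leaving out 1; the small heat shock proteins gave -0.18 (median) and -0.07 to 0.11 leaving out 1. The cause was not tested. The labels do not say whether the replicate numbers pair the arrays. Same-numbered deviations correlated at 0.102, 0.062 and -0.026 by title number and at 0.102, -0.427 and 0.159 by file number. So few arrays cannot show whether the samples were paired.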
